A study of Mus musculus with 12 samples.

Results

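The cells that line blood and lymphatic vessels express a set of genes that few other cells use together, and 40 such endothelial identity genes were followed by symbol through mRNAseq libraries of mouse intestinal stroma. A count was found in at least 1 library for 39 of the 40, out of 18810 genes with a count among the 23329 listed. Only Gpihbp1, which anchors lipoprotein lipase to capillaries, stood at 0 in all 12 libraries. The libraries came from primary stromal cells of the small intestine of C57BL6/J mice, labelled as intestinal myofibroblasts, from embryos at E14.5 or from adults. The cells were exposed for 6 h to lipopolysaccharide of Escherichia coli (LPS; the stated concentration was 10 µg/µl) or to its PBS vehicle. This gave 4 groups of 3 libraries each: embryonic PBS, embryonic LPS, adult PBS and adult LPS. All groups carried no stated allele and shared the removal of epithelium with EDTA, digestion with collagenase and dispase, plating with the ROCK inhibitor Y27632 and early passage in culture, and each embryonic culture pooled several embryos. Before these steps the preparation differed by stage: villi were scraped off adult intestines, while embryonic intestines were cut into pieces. The part of this difference in endothelial content was not tested. The study counts the lack of blood vessels among the limits of its cultures. The sources used here name no step as aimed at keeping or removing endothelial cells.

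Endothelial cells hold together through VE-cadherin (Cdh5) and PECAM-1 (Pecam1), and read vascular growth factors through the VEGF receptors and the Tie receptors. ETS factors such as ERG and SOX factors of the F group keep this programme on. When a microbial product such as LPS is sensed, the vessel wall displays the selectins, E-selectin (Sele) and P-selectin (Selp), on which leukocytes roll.

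Gene counts per library lay between 18850224 and 32672370, and levels are given as CPM, counts relative to the TMM-scaled library total. A count of 3, used as the smallest detectable level, was worth 0.0907 to 0.145 CPM, and this floor covers counting error only. Libraries are named by group and number. Within a stage, PBS and LPS libraries of one number deviated together from their group means, and such a pair is called a culture here. Of the 40 members, 24 passed the filter on low counts (CPM above 0.5 in all libraries of a group) and were tested. The other 16 are described by their levels, and since a gene could pass through the group where it was high, counts over the 24 do not speak for all 40.

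The endothelial label held in only some of the cultures. Cdh5 was read 24 and 44 times in the PBS and LPS libraries of adult culture 1, 5131 and 9051 times in adult culture 2, and 2332 and 1900 times in adult culture 3. In the embryonic libraries it was read 1, 5 and 5 times with PBS and 2, 6 and 9 times with LPS. Adult cultures 2 and 3 therefore carried Cdh5 in amount, at 247 and 279 CPM and at 80.4 and 82.0 CPM, while adult culture 1 held 0.884 and 1.43 CPM and no embryonic library exceeded 0.351 CPM. Pecam1 followed the same order, with 0.921, 431 and 79.9 CPM in adult PBS libraries 1, 2 and 3 and 1.04, 398 and 71.7 CPM in adult LPS libraries. The embryonic libraries held 0.424, 0.701 and 0.454 CPM of Pecam1 with PBS and 1.09, 0.494 and 0.507 CPM with LPS. For both genes the LPS and PBS libraries of a culture lay close together, while adult cultures of the same group lay far apart.

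Kdr, the main VEGF receptor of endothelium and the remaining defining marker, went against this picture. It stood at 8.75, 12.2 and 7.47 CPM in the embryonic PBS libraries and at 15.1, 13.7 and 17.0 CPM in the adult PBS libraries, so the adult culture with the most Cdh5 had no more Kdr than the other adult cultures. With LPS it stood at 11.3, 28.2 and 26.5 CPM in the embryonic and 9.39, 7.37 and 6.73 CPM in the adult libraries. Kdr was thus found in cultures in which Cdh5 was near the floor, and its order across cultures was not that of Cdh5 and Pecam1.

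**Figure D1:**
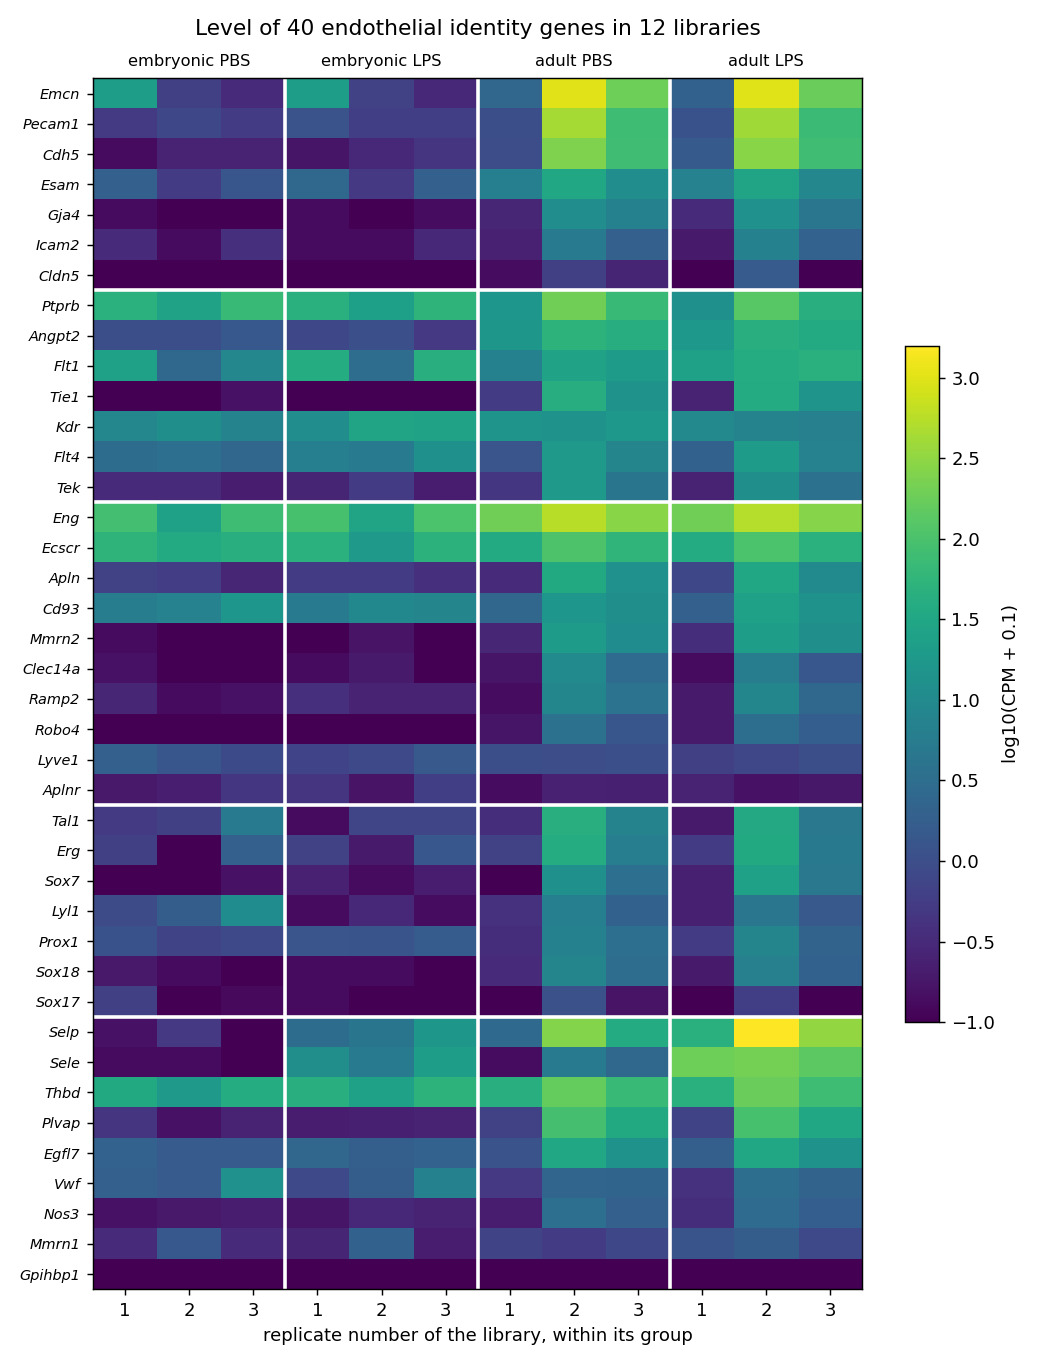
Heat map of the level of each of the 40 endothelial identity genes (rows, grouped by role, with white lines between groups) in each of the 12 libraries (columns, by group and number), as log10 of CPM plus 0.1. Adult libraries 2 are brightest and adult libraries 3 next for most rows, as for Pecam1 at 431 and 79.9 CPM with PBS, while Kdr, Ptprb, Eng, Ecscr and Thbd are seen in every library.

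Among the members, 31 of 40 had their adult levels in the order culture 2, culture 3, culture 1 both with PBS and with LPS. The same order was held by 14.2% of all tested genes and by 11.1% of all genes with a count. Of the members, 21 were at least 10-fold higher in both libraries of culture 2 than in both of culture 1 and than the floor, against 0.383% of tested genes and 0.542% of genes with a count. These cultures were singled out by the levels themselves, so the counts are a description and no test was made between cultures. Outside the order were Kdr, Flt1, Cldn5, Sox17, Sele, Mmrn1, Aplnr, Gpihbp1 and Lyve1.

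**Figure D2:**
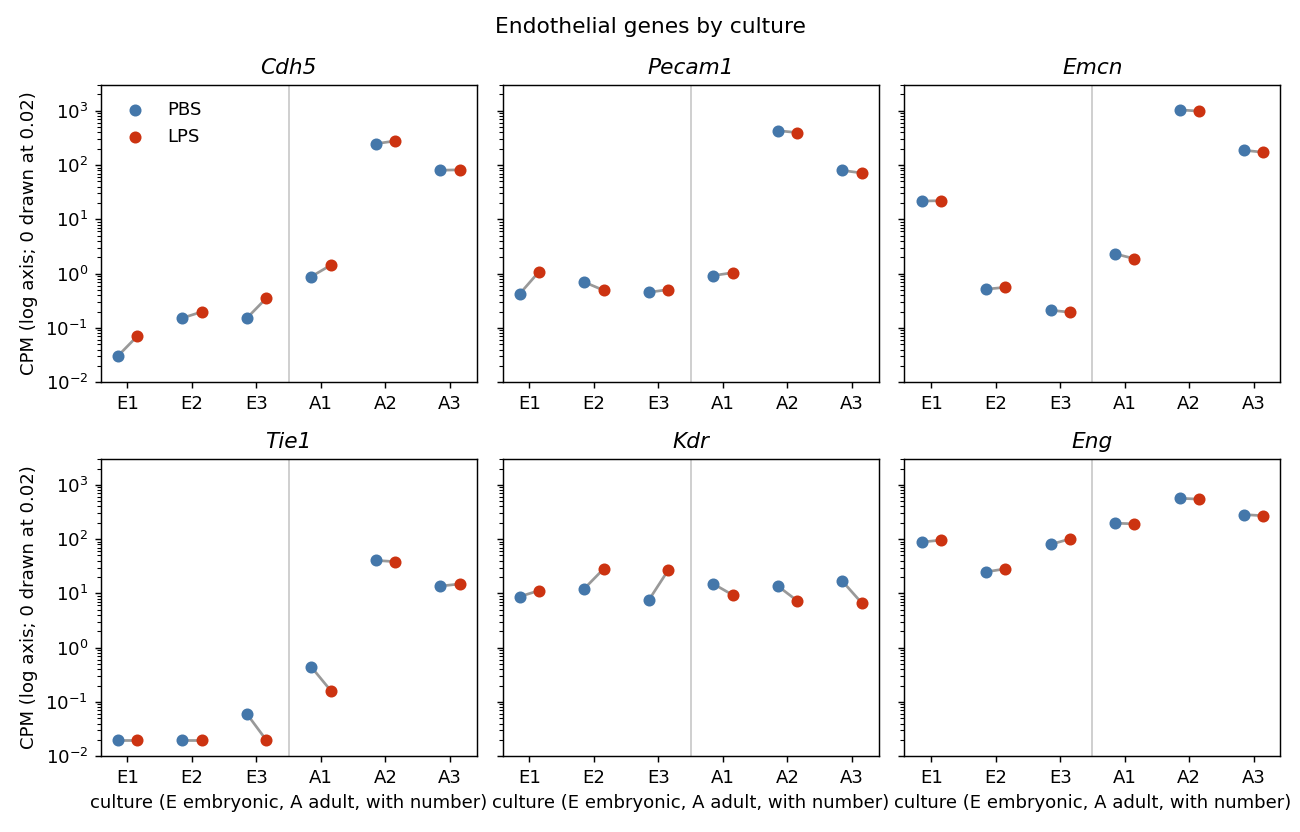
CPM on a log axis of 6 endothelial genes in each culture (E1 to E3 embryonic, A1 to A3 adult), with PBS and LPS libraries of a culture joined by a line and values of 0 drawn at 0.02. Cdh5, Pecam1, Emcn and Tie1 are high in A2 and A3, at 247 and 80.4 CPM for Cdh5 with PBS, while Kdr and Eng are seen in all 6 cultures.

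The junction and surface genes showed the widest range. Emcn, endomucin, an anti-adhesive sialomucin of capillary and venous endothelium, reached 1042 and 989 CPM in adult culture 2 and 187 and 173 CPM in adult culture 3, against 2.32 and 1.88 CPM in adult culture 1. It was also present in embryonic culture 1, at 21.8 CPM with PBS and 22.1 CPM with LPS, while the other embryonic libraries held at most 0.560 CPM. Over both treatments, adult culture 2 exceeded adult culture 1 by 483-fold for Emcn, 417-fold for Pecam1 and 227-fold for Cdh5. Esam, an adhesion molecule of endothelial tight junctions, varied less, at 6.37, 32.6 and 11.2 CPM in adult PBS libraries and 7.18, 27.9 and 8.58 CPM in adult LPS libraries. The embryonic libraries held 1.85, 0.457 and 1.24 CPM of Esam with PBS and 2.46, 0.395 and 1.87 CPM with LPS, all below the lowest adult library. Gja4, the arterial connexin 37, stood at 0.184, 11.4 and 6.93 CPM in adult PBS and 0.227, 13.4 and 4.40 CPM in adult LPS libraries. Its embryonic counts were 1, 0 and 0 with PBS and 1, 0 and 1 with LPS, all under the floor. Cldn5, the claudin of tight barriers, was low even where other members were high, with 1, 11 and 5 counts in adult PBS, 0, 49 and 0 in adult LPS, and 0 in all 6 embryonic libraries. Icam2 ranged from 0.0975 to 6.84 CPM in adult and from 0.0305 to 0.272 CPM in embryonic libraries.

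The 2 Tie receptors, which bind angiopoietins (Tek) or modify that binding (Tie1), exceeded 1 CPM only in the libraries of adult cultures 2 and 3. Tie1 counts were 12, 841 and 396 in adult PBS and 5, 1249 and 346 in adult LPS libraries, and of the embryonic libraries only PBS 3 had any, with 2. In CPM the adult values were 0.442, 40.6 and 13.6 with PBS and 0.162, 38.5 and 14.9 with LPS. Tek stood at 0.368, 18.2 and 4.24 CPM in adult PBS, 0.162, 12.05 and 3.67 CPM in adult LPS, 0.212, 0.213 and 0.121 CPM in embryonic PBS and 0.175, 0.461 and 0.117 CPM in embryonic LPS libraries. Ptprb, the phosphatase that restrains Tie2, was instead present throughout, at 47.8, 25.98 and 70.5 CPM in embryonic PBS and 46.3, 23.1 and 54.1 CPM in embryonic LPS libraries. The adult libraries held 16.1, 193 and 69.4 CPM of Ptprb with PBS and 12.9, 128 and 42.8 CPM with LPS. The lymphatic VEGF receptor Flt4 (VEGFR3) stood at 1.18, 18.0 and 8.20 CPM in adult PBS and 1.92, 21.1 and 7.25 CPM in adult LPS libraries. Flt1 (VEGFR1) ranged from 6.996 to 45.7 CPM in adult and from 2.56 to 42.2 CPM in embryonic libraries.

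Other surface receptors split in the same manner. Robo4, the endothelial roundabout receptor, had 2, 77 and 35 counts in adult PBS, 3, 105 and 40 in adult LPS, and none in the embryonic libraries. Clec14a, a C-type lectin of vessels, had 2, 200 and 81 counts in adult PBS and 1, 193 and 30 in adult LPS, against 2, 0 and 0 in embryonic PBS and 1, 3 and 0 in embryonic LPS libraries. Mmrn2, the multimerin that binds CLEC14A, had 5, 433 and 316 counts in adult PBS and 8, 741 and 284 in adult LPS, against 1, 0 and 0 in embryonic PBS and 0, 2 and 0 in embryonic LPS libraries. These 3 genes were at or under 3 counts in every embryonic library. Eng, the TGF-beta co-receptor endoglin, was different: it was abundant in all libraries, at 88.3, 24.9 and 79.9 CPM in embryonic PBS, 95.9, 28.4 and 101 CPM in embryonic LPS, 197, 567 and 283 CPM in adult PBS and 192, 546 and 270 CPM in adult LPS. Ecscr (18.2 to 105 CPM over all libraries) and Cd93 (1.85 to 25.6 CPM) were also read everywhere. Apln, the apelin ligand, ranged from 0.221 to 36.1 CPM in adult and from 0.181 to 0.545 CPM in embryonic libraries, while its receptor Aplnr did not exceed 0.507 CPM in any. Ramp2 reached 8.49 CPM in adult and 0.281 CPM in embryonic libraries. Lyve1, a hyaluronan receptor of lymphatic endothelium and some macrophages, lay between 0.520 and 1.82 CPM in all libraries.

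Most transcription factors of the programme were highest in adult culture 2, and Lyl1 was not. Erg reached 39.7 CPM in adult libraries against 1.85 CPM at most in embryonic ones, Sox7 25.2 against 0.140 CPM and Tal1 44.0 against 5.17 CPM. Sox18 had 6, 166 and 90 counts in adult PBS and 3, 217 and 45 in adult LPS, against 3, 1 and 0 in embryonic PBS and 1, 1 and 0 in embryonic LPS libraries. Sox17, which is typical of arteries, did not exceed 1.01 CPM in any library. Prox1, the master regulator of lymphatic identity, stood at 0.258, 6.85 and 3.31 CPM in adult PBS and 0.455, 8.17 and 2.11 CPM in adult LPS libraries, and at 1.03, 0.640 and 0.756 CPM in embryonic PBS and 1.19, 1.12 and 1.56 CPM in embryonic LPS libraries. Lyl1, which encodes a relative of TAL1, stood at 0.295, 6.32 and 1.90 CPM in adult PBS and 0.130, 4.35 and 1.38 CPM in adult LPS libraries. It was highest in embryonic PBS 3, at 11.1 CPM, where Cdh5 was at 0.151 CPM.

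Plvap, the diaphragm protein of fenestrated capillaries, stood at 0.552, 91.9 and 35.8 CPM in adult PBS and 0.617, 93.7 and 31.4 CPM in adult LPS libraries. The embryonic libraries held 0.333, 0.0609 and 0.151 CPM of Plvap with PBS and 0.105, 0.132 and 0.156 CPM with LPS. Thbd, the anticoagulant receptor thrombomodulin, was read in every library, at 44.6, 158 and 69.5 CPM in adult PBS, 46.0, 174 and 79.7 CPM in adult LPS, 35.7, 18.3 and 39.4 CPM in embryonic PBS and 42.4, 24.8 and 51.8 CPM in embryonic LPS. Mmrn1, the multimerin of platelets and lymphatic endothelium, was low everywhere, at 0.626, 0.434 and 0.724 CPM in adult PBS, 1.14, 1.66 and 0.733 CPM in adult LPS, 0.212, 1.34 and 0.212 CPM in embryonic PBS and 0.175, 1.94 and 0.117 CPM in embryonic LPS. Egfl7 ranged from 1.07 to 33.2 CPM in adult and from 1.49 to 2.35 CPM in embryonic libraries, and Nos3, the endothelial nitric oxide synthase, reached 3.33 CPM in adult and 0.198 CPM in embryonic ones. Vwf, von Willebrand factor, had its highest level in an embryonic library, at 13.3 CPM in embryonic PBS 3 against at most 3.24 CPM in adult libraries. Macrophage markers summed to 2482 CPM in that library, and to between 10.1 and 835 CPM in the libraries other than embryonic culture 3. The part of macrophages or megakaryocytes in the embryonic Vwf, Tal1 and Lyl1 counts was not tested.

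The summed level of 18 members listed as most restricted to endothelium was 81.6, 2243 and 558 CPM in adult PBS libraries 1, 2 and 3 and 75.7, 2097 and 488 CPM in adult LPS libraries. In the embryonic libraries it was 139, 78.6 and 126 CPM with PBS and 135, 73.7 and 137 CPM with LPS. Adult culture 1 therefore lay within the embryonic range, and by this sum the adult group was made of cultures with unlike endothelial content. Of the 18 genes, 10 were under 1 CPM in every embryonic library, and the embryonic sums came mainly from Ptprb, Ecscr, Kdr and, in culture 1, Emcn. In adult PBS 1, Ecscr, Ptprb and Kdr stood at 36.9, 16.1 and 15.1 CPM, with Cdh5 at 0.884 CPM. The sums of adult culture 1 and of the embryonic libraries therefore do not by themselves measure endothelial content. Over the 16 restricted genes with enough counts, the median ratio of adult culture 2 to adult culture 3 was 2.88, with a range of 0.794 (Kdr) to 6.75 (Erg). Per kilobase of exon, Emcn led in adult PBS 2 with 402 CPM, followed by Eng with 159, Pecam1 with 104, Ecscr with 85.2, Selp with 75.8 and Cdh5 with 61.9 CPM. In bulk RNA, fewer endothelial cells and less endothelial RNA per cell cannot be told apart.

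The other cell types moved between cultures too. Fibroblast markers (6 genes, led by Col1a1 and Col1a2) summed to 16256, 8559 and 16302 CPM in adult PBS libraries 1, 2 and 3, and smooth muscle markers (6 genes, led by Acta2 and Tagln) to 25822, 15358 and 25982 CPM, both lowest in culture 2. Mesothelial markers (6 genes, led by Upk3b and Upk1b) summed to 1384, 499 and 696 CPM and macrophage markers (15 genes, led by C1qb and C1qc) to 109, 11.4 and 30.5 CPM in the same libraries. Pericyte markers (7 genes, led by Pdgfrb and Rgs5) lay between 164 and 509 CPM in all libraries. Erythroid markers (7 of 8 listed genes found, led by Alas2 and Klf1) summed to at most 0.827 CPM. Megakaryocyte and platelet markers (8 genes, led over all libraries by Ppbp and Pf4) summed to between 5.45 and 7.72 CPM in adult libraries and between 9.29 and 48.0 CPM in embryonic ones. In the adult libraries Ppbp had 3 counts in all with PBS and 20 with LPS. Pf4 did not exceed 1.04 CPM there and lay below Itga2b in each. The lymphatic list (7 genes) was carried by Pdpn, which stromal cells also express, and Ccl21a was at 0 in all 12 libraries. Markers of interstitial cells of Cajal (3 genes, led by Ano1 and Kit) summed to 2.61, 20.2 and 7.37 CPM in adult PBS libraries, in the endothelial order. Epithelial markers (6 genes) were led by Krt20 and Cdh1 and summed to between 7.49 and 59.9 CPM. Mast cell markers (7 genes, led by Ms4a2 and Hdc) summed to between 2.90 and 31.1 CPM and artery and vein genes (12 genes, led by Efnb2 and Ephb4) to between 127 and 451 CPM. The part of these differences in the results below was not tested.

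Upstream sequence is shown for the 2 selectins, which changed most with LPS, and for Apln, whose levels lay far apart between cultures. Of the 40 members, 20 had a promoter in the RefSeq set for GRCm38.p6, which runs from 250 bases before to 50 after the start of the gene. The core letters bound by ETS factors (CNGGAAG, either strand) occurred in 13 of these 20 members, in 15 of their 26 promoters (57.7%), against 31.9% of 32851 promoters of all genes. One NF-kB consensus (GGG, any 2 bases, then TTTCC, on either strand; its last letters can overlap an ETS core) occurred in none of the 26, against 1.63% of all promoters; that says only that these letters are not in these windows. The sequences below run from 200 bases to 1 base before the start in the direction of the gene, with matches to the ETS core in capitals. They lie at chr1:164048034-164048233 (plus strand) for Sele, chr1:164115064-164115263 (plus strand) for Selp and chrX:48034854-48035053 (minus strand) for Apln. No exon of GENCODE M21 overlaps the 3 windows, and that of Sele lies within the span RefSeq gives the gene, which has a farther upstream start.
Sele: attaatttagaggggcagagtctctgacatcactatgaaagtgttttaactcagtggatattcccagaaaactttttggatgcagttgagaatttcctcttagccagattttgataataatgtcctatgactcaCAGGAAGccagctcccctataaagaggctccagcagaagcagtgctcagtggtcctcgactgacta
Selp: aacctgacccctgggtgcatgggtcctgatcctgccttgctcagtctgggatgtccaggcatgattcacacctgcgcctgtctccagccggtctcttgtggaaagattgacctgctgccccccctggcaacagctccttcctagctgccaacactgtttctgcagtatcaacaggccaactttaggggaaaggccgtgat
Apln: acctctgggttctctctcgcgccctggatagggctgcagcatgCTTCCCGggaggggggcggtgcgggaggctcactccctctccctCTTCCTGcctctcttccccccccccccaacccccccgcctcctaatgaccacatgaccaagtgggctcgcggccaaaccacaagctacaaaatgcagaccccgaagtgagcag

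To determine whether the endothelial genes responded to LPS, each stage was compared with its vehicle control. With the culture as a block both selectins rose at both stages. Sele was read 1, 1 and 0 times in embryonic PBS libraries and 335, 159 and 570 times in embryonic LPS libraries, which is 0.0303, 0.0305 and 0 CPM against 11.8, 5.24 and 22.2 CPM. Pooled over the libraries, the embryonic ratio was 623, with a 95% counting interval from 172 to 5149. In adult libraries Sele went from 1, 110 and 70 counts (0.0368, 5.30 and 2.41 CPM) with PBS to 5854, 6872 and 3189 counts (190, 212 and 138 CPM) with LPS. The groups did not overlap at either stage. Adult culture 1, with Cdh5 near 1 CPM, thus reached a Sele level close to that of adult culture 2, where Cdh5 was at 279 CPM. With the block Sele stayed called with any 1 culture left out (edgeR, adjusted p at most 0.0184 in embryonic and 0.0159 in adult stroma). Without the block its log2 fold change in embryonic stroma was 9.07 (SE 1.48, edgeR quasi-likelihood test, adjusted p = 0.0105), which depends on the prior count. In adult stroma it was 6.15 without the block (SE 1.02, adjusted p = 0.0257). The adult call was lost, at adjusted p from 0.0526 to 0.209, when any adult LPS library or adult PBS library 2 or 3 was left out of the unblocked edgeR fit, and the embryonic call without embryonic PBS library 1 (adjusted p = 0.0679).

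Selp had the same order as Cdh5 in the adult PBS libraries and was higher with LPS in every culture. It stood at 2.61, 260 and 39.0 CPM in adult PBS and at 46.7, 1577 and 334 CPM in adult LPS libraries. In embryonic stroma it was read 2, 13 and 0 times with PBS and 85, 126 and 427 times with LPS, or 0.0606, 0.396 and 0 CPM against 2.98, 4.15 and 16.6 CPM. The embryonic groups did not overlap, and the adult groups did, since the adult PBS library of culture 2 lay above the LPS library of culture 1. Selp was not called without the replicate block in edgeR (embryonic log2 fold change 5.68, adjusted p = 0.263; adult 2.70, adjusted p = 1.00). With the culture as a block it was called at both stages in edgeR, at 5.56 (SE 0.74, adjusted p = 0.00231) and 3.17 (SE 0.38, adjusted p = 0.00265). Exons of antisense gene models overlap Selp, and the counts used were those of the expected strand.

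**Figure D3:**
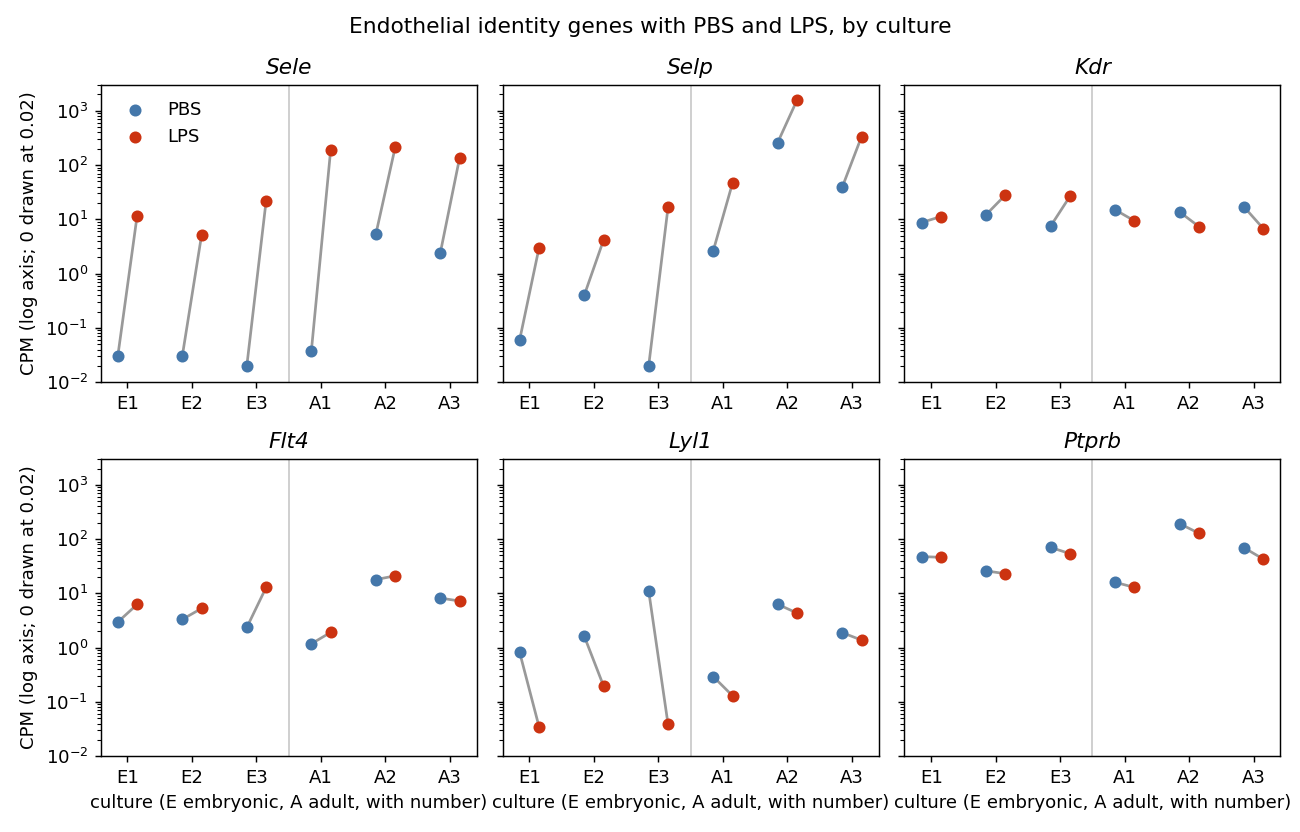
CPM on a log axis of Sele, Selp, Kdr, Flt4, Lyl1 and Ptprb in each culture (E1 to E3 embryonic, A1 to A3 adult), with PBS and LPS libraries of a culture joined by a line and values of 0 drawn at 0.02. Sele and Selp rise in all 6 cultures, as from 0.0368 to 190 CPM for Sele in A1, Kdr is higher with LPS in E1 to E3 and lower in A1 to A3, and Lyl1 is lower with LPS in every culture.

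In embryonic stroma Sele was the only one of the 24 tested members called without the block (4.17%, against 2.75% of all tested genes, adjusted p under 0.05), and 6 were called with it (25% against 12.5%). Median log2 fold changes were 0.27 over the members and -0.000274 over all genes. Beside the selectins, the members called with the block in edgeR were Kdr, Flt4, Thbd and Lyl1. Kdr rose by a log2 fold change of 1.17 (SE 0.25, adjusted p = 0.0220; 1.25 and 0.0895 without the block), and this call was lost without embryonic culture 2 (adjusted p = 0.0656) or 3 (0.0685). Flt4 went from 2.97, 3.32 and 2.36 CPM to 6.28, 5.31 and 12.9 CPM, without overlap, a log2 fold change of 1.43 (SE 0.32, adjusted p = 0.0245 with the block and 0.714 without it in edgeR). This call was lost in edgeR without embryonic culture 1 (adjusted p = 0.0564) or adult culture 2 (0.0556) or 3 (0.0549), and the value was 0.88 without embryonic culture 3. Thbd rose by 0.39 on the log2 scale (SE 0.07, adjusted p = 0.0133 with the block and 0.999 without it in edgeR), and its call was lost without embryonic culture 3 (adjusted p = 0.0511).

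Lyl1 fell. It went from 27, 54 and 368 counts (0.818, 1.64 and 11.1 CPM) in embryonic PBS to 1, 6 and 1 counts (0.0351, 0.198 and 0.0390 CPM) in embryonic LPS libraries, and the groups did not overlap. Its log2 fold change was -5.12 (SE 0.68, adjusted p = 0.00231 in edgeR with the block and 0.158 without it). With whole cultures left out of the blocked edgeR fit it lay between -7.03 (without embryonic culture 2) and -3.37 (without embryonic culture 3) and stayed called, at adjusted p of 0.0101 or less. Macrophage markers summed to 233, 368 and 2482 CPM in the embryonic PBS libraries, in the same order as Lyl1. With LPS they summed to 173, 835 and 1785 CPM, where Lyl1 was at or near the floor. Single macrophage markers moved both ways, as Cx3cr1 from 274 to 17.6 CPM and Ptprc from 59.9 to 162 CPM in embryonic culture 3. The part of macrophages in the fall of Lyl1 was not tested. Lyl1 lies opposite to exons of Nfix on the other strand. Prox1 also did not overlap between embryonic LPS and PBS, and its log2 fold change of 0.70 did not pass the test with either fit (adjusted p = 0.999 and, with the block, 0.191 in edgeR). The share of all tested genes without overlap in this comparison was 11.9%, against 5 of the 24 tested members (Flt4, Selp, Sele, Prox1 and Lyl1).

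In adult stroma, again, Sele was the only member called without the block (4.17% of the 24, against 0.606% of all tested genes), and Sele, Selp and Ptprb were called with it (12.5% against 6.2%). Median log2 fold changes were -0.04 over the members and -0.00749 over all genes. Ptprb fell by 0.53 on the log2 scale (SE 0.10, adjusted p = 0.0187 in edgeR with the block), and was lower with LPS in 3 of 3 cultures; without the block its adjusted p was 1.00. The call with the block was lost in edgeR without adult culture 2 (adjusted p = 0.116) or 3 (0.162). Kdr, Sele and Mmrn1 were the 3 of 24 members whose adult LPS and PBS libraries did not overlap, against 14.6% of all tested genes. Kdr was lower with LPS in 3 of 3 cultures and did not pass the test (adjusted p = 0.0787 with the block in edgeR). In the 2 adult cultures with endothelial transcripts the restricted genes were mostly close to their vehicle level: all 16 restricted genes with enough counts in culture 2 and 14 of 16 in culture 3 were within 1 log2 unit, the exceptions in culture 3 being Kdr (-1.32) and Clec14a (-1.07). Outside this group, Mmrn1 differed by 1.78 log2 units in culture 2 and Flt1 by 1.12 in culture 3. The restricted genes' median LPS minus PBS difference was -0.13 log2 units in culture 2 and -0.18 in culture 3. The corresponding values were 0.12 over 8 genes in adult culture 1 and 0.12, 0.02 and 0.31 over 6, 4 and 6 genes in embryonic cultures 1, 2 and 3. Ptprb, Ecscr and Kdr were among the genes in each of these cultures, so these values do not stand for endothelial cells alone.

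**Figure D4:**
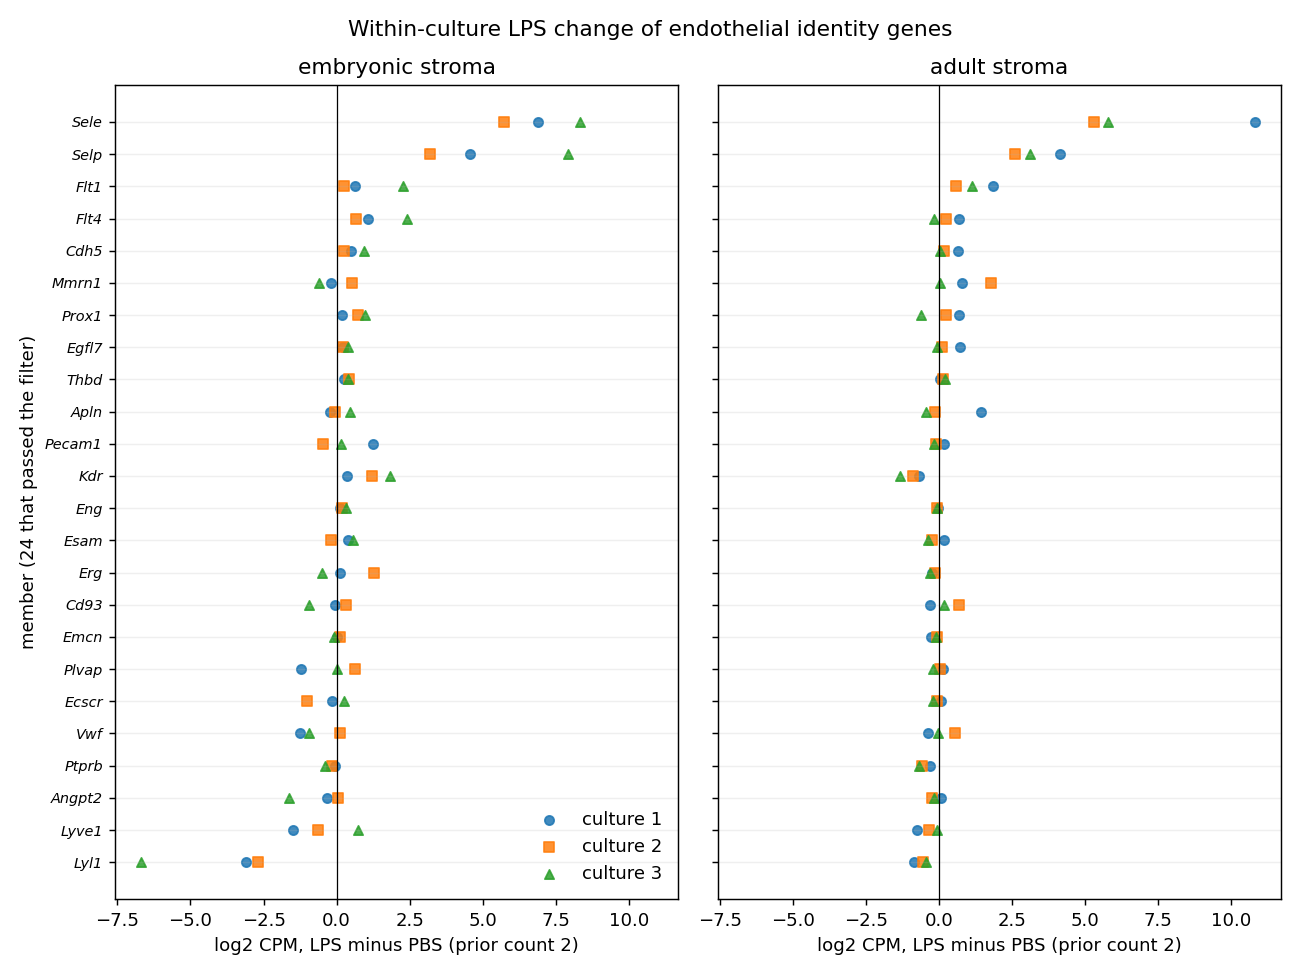
Within-culture difference in log2 CPM, LPS minus PBS (prior count 2), of the 24 tested members (rows) in the 3 embryonic cultures (left) and the 3 adult cultures (right), with 1 symbol per culture. Sele and Selp lie to the right in all 6 cultures, Lyl1 farthest to the left in embryonic stroma, and most other members near 0 in adult cultures 2 and 3, where the restricted genes had medians of -0.13 and -0.18.

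The stage difference of the LPS response was tested as an interaction. No member was called without the block in edgeR, nor was any of the 13038 genes (0%); at an unadjusted p under 0.05, 2 members (Kdr and Lyl1) and 2.25% of all genes passed, and DESeq2 called 1 member, Kdr (0.192% of all genes). In the other comparisons DESeq2, without the block, called 4 members for LPS in embryonic stroma (5.26% of all genes), 1 for LPS in adult stroma (2.26%) and 10 between vehicle libraries (11.9%). With the block Kdr alone was called in edgeR (0.844% of all genes were), with a difference of 2.13 log2 units between the embryonic and the adult change (SE 0.36, adjusted p = 0.0481; 2.20 and 0.968 without the block). The difference lay between 1.77 and 2.51 when any 1 culture was left out, and its call with the block was lost without embryonic culture 2 (adjusted p = 0.0888) or adult culture 1 (0.168), 2 (0.189) or 3 (0.252). Without the block, the difference in the response of Sele was 2.91 (SE 2.09) and that of Selp 2.98 (SE 2.49) log2 units in edgeR, both with adjusted p = 1.00. Neither was called with the block, so neither selectin was shown to respond differently at the 2 stages.

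Embryonic and adult stroma were then compared in their vehicle libraries. Of the 24 tested members 5 were called, all lower in embryonic stroma (20.8%, against 2.57% of all tested genes called lower and 4.08% called in either direction). The median log2 fold change over the members was -2.27, and 0.02 over all genes. Cdh5, Esam, Pecam1, Emcn, Erg, Plvap, Apln and Mmrn1 passed the filter on low counts only through an adult group. The count, its share and the median therefore describe the members and are no test of them as a set. Cdh5 (-9.89, adjusted p = 0.0494), Esam (-3.82, SE 0.90, adjusted p = 0.0451), Selp (-9.33, SE 2.20, adjusted p = 0.0451) and Sele (-6.69, SE 1.57, adjusted p = 0.0441, which depends on the prior count) passed by a small margin in edgeR. Each of these 4 calls was lost without adult PBS library 2 (adjusted p from 0.103 to 0.127 in edgeR) or 3 (from 0.0980 to 0.119), and without any embryonic PBS library (from 0.0719 to 0.141). Adult culture 1 carried little Cdh5 and Selp, and its PBS library had 1 count of Sele, against 110 and 70 in adult PBS libraries 2 and 3. These differences therefore describe a group in which the cultures were unlike.

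Angpt2, angiopoietin-2, a ligand of the Tie2 receptor that loosens vessels, was the exception. It stood at 16.6, 51.9 and 41.0 CPM in adult PBS and 17.4, 44.4 and 36.2 CPM in adult LPS libraries, adult culture 1 included. The embryonic libraries held 0.908, 0.914 and 1.36 CPM with PBS and 0.702, 0.956 and 0.390 CPM with LPS, so the stages were far apart in every library. The log2 fold change between vehicle libraries was -5.10 (SE 0.55, adjusted p = 0.00151 in edgeR), and it stayed called with any library left out (adjusted p from 0.00174 to 0.0129). Between the LPS libraries it was -5.53 (adjusted p = 0.00165 in edgeR), and 4 of the 24 members were called there, against 5.31% of all tested genes. The others were Cdh5 (-9.17, adjusted p = 0.0484) and Sele (-3.78, adjusted p = 0.0407), lower in embryonic stroma, and Kdr (1.51, adjusted p = 0.0312), higher in it in edgeR. Over both treatments, adult culture 2 exceeded adult culture 1 by 2.77-fold for Angpt2 and by 417-fold for Pecam1.

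Of all 40 members, 18 did not overlap between embryonic PBS and adult PBS libraries, and 10 of these were among the 24 tested members, against 24.5% of all tested genes. They were Cdh5, Pecam1, Kdr, Tek, Tie1, Eng, Esam, Cldn5, Robo4, Sox18, Selp, Sele, Plvap, Mmrn2, Clec14a, Gja4, Thbd and Angpt2, each higher in every adult than in every embryonic PBS library. For 12 of them, as for Tie1, Gja4 and Robo4, the lowest adult library was under 1 CPM, so the absence of overlap came with a small difference for adult culture 1. For Sele, adult PBS 1 and embryonic PBS 1 had 1 count each, and for Clec14a 2 counts each. Their CPM values there differed only through the library totals. For Cldn5, adult PBS 1 had 1 count against 0 in the embryonic libraries. Eng (-2.44, adjusted p = 0.0657 in edgeR) and Thbd (-1.55, adjusted p = 0.164 in edgeR) were clear of the floor in all libraries and did not pass the test. Kdr (-0.69, adjusted p = 0.283 in edgeR) and Pecam1 (-8.33, adjusted p = 0.0730) also did not pass, nor did Plvap (-7.84, adjusted p = 0.0605), which was under the floor in embryonic PBS 2.

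A wider list of 74 vascular pathway genes, covering VEGF, angiopoietin, Notch and ephrin signalling, endothelial transcription factors and adhesion and haemostasis genes, set the members in context, and 62 of them were tested. LPS raised 5 of them in embryonic stroma without the block (8.06%, against 2.75% of all tested genes) and lowered none. These included Icam1 (log2 fold change 4.41, adjusted p = 0.00603 in edgeR) and Vcam1 (4.40, adjusted p = 0.00391), which bind leukocyte integrins, and the Notch ligand Dll1 (4.36, adjusted p = 0.0457). With the block 14 rose and 4 fell (29%, against 12.5% of all genes), led by Vcam1 at 4.60, Icam1 at 4.34 and Dll1 at 4.27 log2 units. In adult stroma only Vcam1 rose without the block (3.69, adjusted p = 0.0178 in edgeR; 1.61% of the 62, against 0.606% of all tested genes). With the block 7 rose and 2 fell (9 of 62, against 6.2% of all tested genes), led by Vcam1 at 3.75, Icam1 at 3.16 and Angptl4, an inhibitor of lipoprotein lipase, at 2.35 log2 units. Vcam1 and Icam1 are also expressed by stromal cells. Between vehicle libraries 7 were lower in embryonic stroma and none higher (11.3%, against 2.57% of all tested genes called lower), led by the tip-cell gene Esm1 (-7.59, adjusted p = 0.0482 in edgeR), Gata2 (-4.16, adjusted p = 0.0195) and Figf, which encodes VEGF-D (-3.40, adjusted p = 0.0144). Esm1 stood at 1.25, 83.1 and 28.9 CPM in adult PBS libraries 1, 2 and 3 and at no more than 0.363 CPM in any embryonic library. It passed the filter only through the adult groups, so the share called lower is a description and no test of the list. None of the 62 was called for the stage difference of the LPS response with either fit.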

How the data were processed

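Stage, treatment and number were read from the sample labels. The authors trimmed the reads, mapped them with STAR to GRCm38.p6 and kept unique alignments with at most 1 mismatch. The deposited values are raw counts per gene, and the counts on the strand of the transcript were used (the opposite strand held 1.15% to 2.00% as many). Members, gene lists, the rule for named genes and the tests were chosen with earlier results of these data known. Values in every library are given for Cdh5, Pecam1, Kdr and for members called, or not overlapping, in any comparison. Of the vascular list, the 3 largest changes among called genes of each comparison are named, and of the cell type lists the 2 most abundant genes. The values of 1 cell type list are not reported here.

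Genes with CPM above 0.5 in all libraries of a group (13038) were fitted in R 4.3.3 with edgeR 4.0.16 (TMM, quasi-likelihood test, group as the only term, all 12 libraries) and Benjamini-Hochberg adjustment over all tested genes. Calls are at adjusted p under 0.05. A second fit blocked on culture number, separately for each stage. The numbers paired the libraries: deviations from the group means correlated at 0.710 to 0.784 in embryonic and 0.610 to 0.850 in adult pairs. The biological coefficient of variation was 0.340 without and 0.126 with the block. No source used here states that PBS and LPS libraries of a number share a culture, and p-values measure the spread between these libraries. Alternatives were DESeq2 1.42.0, other scaling, filters, thresholds, strand use and libraries left out. Replicates differed by more than sampling noise. The fits were tested on simulated counts. Exon lengths and overlaps came from GENCODE M21, promoters from RefSeq, and figures were drawn with matplotlib 3.10.9.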

Additional observations from a re-analysis of the deposited data

Results flagged for a closer look

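The LPS response of Kdr differed between the stages in a test of the difference with the culture as a block, by 2.13 log2 units (embryonic minus adult, edgeR, adjusted p = 0.0481). Every embryonic culture was higher and every adult culture lower with LPS, with means of the within-culture changes 2.09 log2 units apart. The adult decrease itself did not pass the test (adjusted p = 0.0787 with the block in edgeR). Without the block the adjusted p was 0.968. Eng also moved one way in all embryonic and the other way in all adult cultures, by 0.27 log2 units between the means. It was not called for the stage difference of the LPS response with either edgeR fit. Groups of 3 libraries were not searched for outlying samples.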

How the results depend on the processing

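Without the block, the embryonic LPS calls among members were 0 at adjusted p under 0.01, 0 with the compared groups alone and 4 with DESeq2, and 6 with the replicate block. Adult LPS calls were 0 at adjusted p under 0.01 and 3 with the block. For the stage difference of the LPS response, DESeq2 and the block each gave 1. Vehicle stage calls were 10 with DESeq2, 2 with LPS and PBS libraries summed per culture, 1 at adjusted p under 0.01, 1 with the compared groups alone and 0 with a replicate block across stages, where the numbers do not pair the libraries (correlations from -0.224 to -0.0890 for PBS) and Angpt2 had adjusted p = 0.0842 in edgeR. With single libraries left out, member calls ranged from 0 to 2 (embryonic LPS), 0 to 1 (adult LPS) and 1 to 8 (vehicle stage).

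Vascular pathway calls for embryonic LPS were 18 with the block, 3 with library totals, 2 at adjusted p under 0.01 and 0 with the compared groups alone. For adult LPS they were 9 with the block, 5 with DESeq2, 5 with the compared groups alone and 0 at adjusted p under 0.01. Between vehicle libraries they were 16 with DESeq2, 4 with a fold threshold, 4 without the filter, 2 with summed libraries, 1 with the compared groups alone, and 0 at adjusted p under 0.01 or with the block. With libraries left out they ranged from 2 to 5, 0 to 3 and 1 to 9.

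Leaving out whole cultures in the blocked fit, a choice made after the data were seen like the left-out values of sums and medians, gave 4 to 6 members for embryonic LPS, 2 to 5 for adult LPS and 0 to 1 for the stage difference, and 12 to 22, 4 to 13 and 0 to 2 vascular genes. The mean summed level over all 40 members was 2348 CPM in adult LPS, 304 CPM in embryonic LPS and 252 CPM in embryonic PBS libraries, and over Cdh5, Pecam1 and Kdr 22.9 and 10.1 CPM in the embryonic ones. Most of these marker sums was Kdr, at means of 22.0 CPM in embryonic LPS and 9.47 CPM in embryonic PBS libraries. Left-out libraries moved the restricted sum over 282 to 1293 CPM (adult LPS), 320 to 1401 CPM (adult PBS), 104 to 136 CPM (embryonic LPS) and 102 to 133 CPM (embryonic PBS), and left-out cultures the median LPS change over -0.155 to -0.00554 in adult and 0.0743 to 0.217 log2 units in embryonic stroma. Ptprb in adult stroma turned from -0.59 to 0.54 (edgeR, adjusted p = 1.00) without adult PBS library 2, and lay between -1.73 and 0.54 with any library left out and no block. The causes were not tested. The floor of 3 counts limits what can be said of members at or under it in embryonic stroma.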
